A study of Mus musculus with 6 samples.

Results

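Cirbp and Rbm3 encode the cold-inducible RNA-binding proteins CIRBP and RBM3, and were taken as the rows with those symbols among the 27998 genes of the count tables, so the members were 2 genes. Cirbp was chosen because it had been seen to be lower in the stress library of every tissue, so its ratio between stress and control is given here as a description. The direction of Rbm3 was not part of that choice, but both members and the gene lists below were chosen with earlier results of these data known. Droplet single-cell RNA libraries came from 3 organs of C57BL/6 mice at 10 weeks of age: the hypothalamic paraventricular nucleus with its surroundings (PVN), the pituitary, and the adrenal. Stress mice were exposed to chronic social defeat for 21 days, a model of repeated confrontation with an aggressive mouse, and control mice were not. Each tissue had 1 stress library and 1 control library, each from the pooled tissue of 5 mice, so there is no replicate check and no test between conditions. The intervals below cover counting error only.

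Both proteins carry an RNA recognition motif and a glycine-rich tail, bind messenger RNA, and accumulate when mammalian cells are cooled below normal body temperature and fall when cells are warmed. In mouse tissues their transcripts are known to follow the daily rhythm of body temperature, and CIRBP is known to bind transcripts of core clock genes. RBM3 is known for its part in the maintenance of synapses in cooled mouse brain. Tissue handling itself changed temperature: cold saline was used for perfusion and the organs were kept in ice-cold solutions, per the labels' protocols, before the pools were dissociated at 37 °C for 35 min (PVN), 15 min (pituitary) or 55 min (adrenal), with the same time for the stress and control pool of a tissue.

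Cirbp (ENSMUSG00000045193) lies on the plus strand of mouse chromosome 10, from 80165985 to 80172786 (GRCm38, GENCODE vM21). Its upstream promoter window in RefSeq (GRCm38.p6, chr10:80167589-80167888, plus strand, 250 bases before and 50 after the start) is shown because it holds the letters TCCCCGCC, an element reported to respond to mild cold in this gene. The capitals mark that match.
Cirbp promoter: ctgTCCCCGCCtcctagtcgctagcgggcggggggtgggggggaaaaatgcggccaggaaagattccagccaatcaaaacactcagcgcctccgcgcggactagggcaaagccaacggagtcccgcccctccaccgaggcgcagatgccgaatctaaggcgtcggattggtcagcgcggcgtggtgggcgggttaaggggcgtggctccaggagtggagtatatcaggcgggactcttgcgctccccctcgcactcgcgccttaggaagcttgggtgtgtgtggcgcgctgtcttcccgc
The match was on the plus strand and began 247 bases before the start. Searched on both strands, TCCCCGCC was found in 5.38% of the 32851 promoter windows of that table. The same window held the GC box GGGCGG 3 times, beginning 225, 128 and 65 bases before the start and without overlap with the marked letters. GGGCGG was found in 35.7% of all windows. Neither the E box CACGTG, the target of the clock activators (7.15% of all windows), nor the heat-shock type pair GAANNTTC (7.86%) was among its letters. A downstream Cirbp window (chr10:80167921-80168220, plus strand) held GGGCGG 4 times and no TCCCCGCC. Rbm3 (ENSMUSG00000031167) lies on the minus strand of chromosome X, from 8138975 to 8145880, and its start overlaps the antisense gene Rbm3os by 452 bases. Rbm3os had 6 to 30 UMIs (counted RNA molecules) per library, against 2614 to 8251 for Rbm3, and strand use in the counting is not given in the sources used here.

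After filtering, 21698 of 23083 barcodes were kept, with a median of 5578 UMIs per cell in the PVN stress library and 5780 in the PVN control library, 9960 and 9632 in the pituitary stress and control libraries, and 10127 and 10550 in the adrenal stress and control libraries. Pairs of libraries shared 10 to 39 cell barcodes, at most 0.974% of the smaller library. The adrenal stress library stood apart by 378 barcodes over 25% mitochondrial UMIs, against 130 in the adrenal control library. These were left out. The kept cells were clustered by tissue, and clusters were called by class from marker genes, which gave 23 classes with at least 50 cells in each library: 8 (PVN), 10 (pituitary) and 5 (adrenal). Levels are given in CPM, the UMIs of a gene scaled to the UMIs of all genes in the class.

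Cirbp was highest in neurons and in several hormone cells of the pituitary, and lowest in adrenal macrophage-like cells. In PVN neuron-like cells it stood at 390 CPM in the stress library (95% interval 381 to 399) and 467 CPM in the control library (457 to 477). Corticotrope-like cells, which make the hormone that drives the adrenal cortex, came next with 276 CPM in stress (252 to 302) and 379 CPM in control (350 to 409). Gonadotrope-like cells had 236 CPM in stress and 287 CPM in control, and thyrotrope-like cells had 235 CPM in stress and 220 CPM in control. From corticotrope-like cells down to the adrenal zona glomerulosa-like cells, neighbours in the stress order had overlapping intervals, so the order of neighbours is not resolved. Classes further apart in that run could lie without overlap, such as corticotrope-like (252 to 302) and lactotrope-like cells (125 to 147). In the control libraries neurons stood above corticotropes, and corticotropes above gonadotropes, without overlap. Erythroid-like cells, too few for a comparison, had 18.2 CPM in the PVN stress library (2 UMIs) and 35.1 CPM in the pituitary stress library (4 UMIs). The lowest class compared was the adrenal macrophage-like cells, with 48.9 CPM in stress and 51.0 CPM in control. The highest class was thus 7.98-fold above the lowest in the stress libraries and 9.16-fold in the control libraries. PVN neuron-like cells held 83.9% of the Cirbp UMIs of the PVN stress library and 81.8% of those of the control library, while they held 63.9% and 62.7% of all UMIs there.

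Rbm3 followed another order, with its highest levels in vessel, immune and stem-type cells. In pituitary endothelial-like cells it stood at 294 CPM in stress (252 to 342) and 278 CPM in control (231 to 333). PVN endothelial-like cells had 227 CPM in stress and 327 CPM in control. Pituitary stem and folliculostellate-like cells, the support and progenitor cells of the gland, had 266 and 313 CPM in stress and control, and adrenal macrophage-like cells had 268 and 291 CPM. In the control libraries the levels from PVN endothelial-like to PVN neuron-like cells formed a chain of overlapping neighbours, with oligodendrocyte-like cells (113 CPM) below it and the 3 adrenal cortex classes lowest. Those were zona glomerulosa-like cells, which make aldosterone, at 118 CPM in stress and 71.8 CPM in control, cortex-like cells of unclear zone at 100.1 and 67.5 CPM, and zona fasciculata-like cells, which make corticosterone, at 78.7 and 58.9 CPM. The highest class was 3.74-fold above the lowest in stress and 5.55-fold in control.

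**Figure D1:**
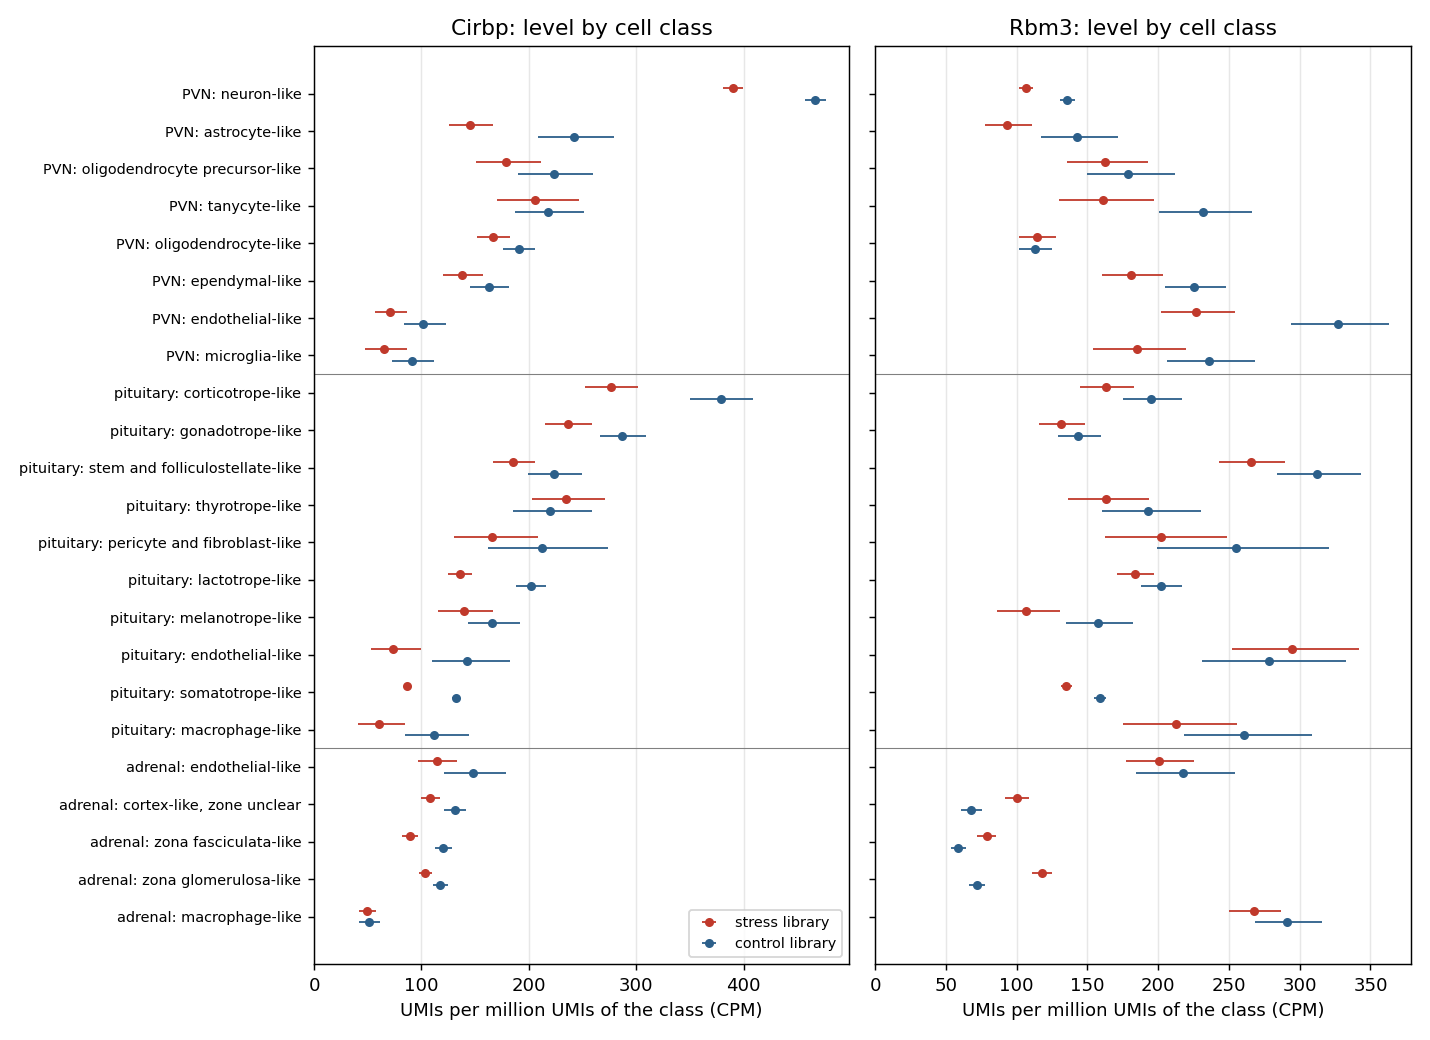
Levels of Cirbp (left) and Rbm3 (right) in 23 cell classes, in CPM on a linear axis. Points are single libraries, red for stress and blue for control, and bars are exact 95% counting intervals. Cirbp peaks in PVN neuron-like cells (390 CPM in stress, 467 CPM in control) and Rbm3 is lowest in the control adrenal cortex.

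The macrophage and microglia-like classes compared stood low for Cirbp and high for Rbm3. In the 3 tissues these classes had 48.9 to 64.9 CPM of Cirbp in the stress libraries and 51.0 to 112 CPM in the control libraries. Their Rbm3 stood at 185 to 268 CPM in stress and 236 to 291 CPM in control. This was not particular to them: in stress, PVN and pituitary endothelial-like cells had 70.6 and 73.6 CPM of Cirbp. Their Rbm3 stood at 227 and 294 CPM. Over the 46 pools (23 classes in both conditions) the Pearson correlation of the levels of Cirbp and Rbm3, as log2(CPM + 1), was -0.15. The pools of a tissue share their library and its depth, so this is a description.

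**Figure D2:**
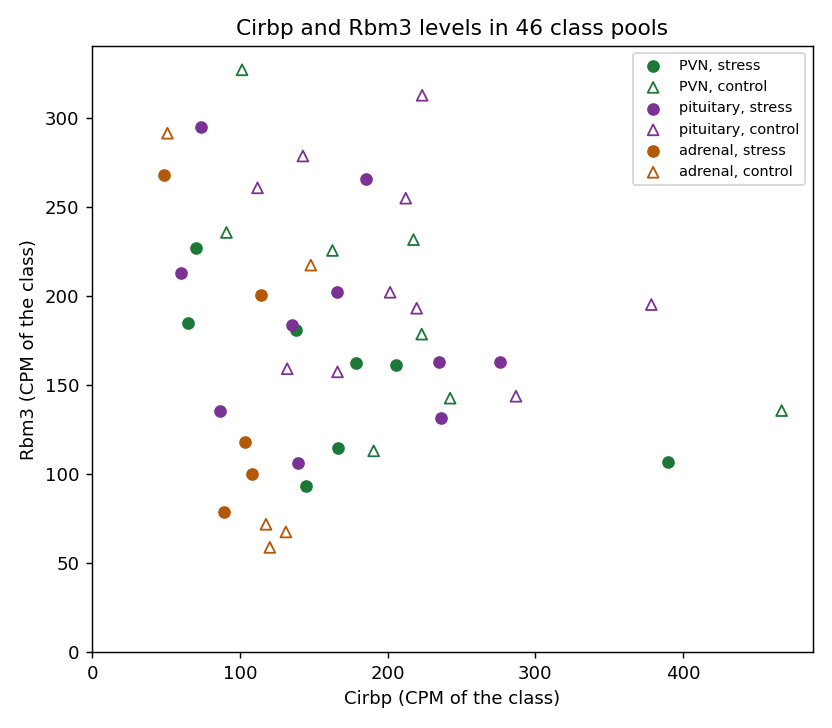
Rbm3 against Cirbp in 46 pools of 1 class in 1 library, both in CPM on linear axes. Filled circles are stress and open triangles control, coloured by tissue. Neuron-like cells lie far right at 107 and 136 CPM of Rbm3 in stress and control, and the adrenal cortex classes lie at the lower left.

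Over all kept cells Cirbp was lower in the stress library of every tissue, the pattern for which it was chosen. In the PVN it stood at 297 CPM in stress (8484 UMIs) and 358 CPM in control (10648 UMIs), a log2 ratio of -0.27 (-0.31 to -0.23). In the pituitary it stood at 111 CPM in stress and 160 CPM in control, a log2 ratio of -0.54 (-0.59 to -0.49). In the adrenal it stood at 94.7 CPM in stress and 116 CPM in control, a log2 ratio of -0.29 (-0.37 to -0.22). Of all genes with at least 50 UMIs over both libraries, the share at least 1.2-fold lower in stress was 8.61% for PVN, 21.2% for pituitary and 10.3% for adrenal. In the pituitary the median gene had a log2 ratio of -0.11, and relative to it Cirbp stood at -0.43.

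As background to that choice, 2067 (17.4%) of 11855 genes with the UMI minimum in every tissue were lower in stress in all 3 tissues. At least 1.2-fold lower in all 3 were 33 genes (0.278%), Cirbp among them, of which 9 had at least 200 UMIs in each tissue, and 61 genes (0.515%) were at least 1.2-fold higher. As low as or lower than Cirbp in each tissue were 10 genes, Cirbp included. Cirbp was chosen for this pattern, so its place among these genes is no result.

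Rbm3 was lower in stress in the PVN and pituitary and higher in stress in the adrenal. In the PVN it stood at 125 CPM in stress and 157 CPM in control, a log2 ratio of -0.33 (-0.40 to -0.27), and 6.07% of genes were as low or lower. In the pituitary it stood at 151 CPM in stress and 173 CPM in control, a log2 ratio of -0.20 (-0.24 to -0.15). Relative to the pituitary median gene that was -0.092, and 31.1% of genes were as low or lower. In the adrenal it stood at 135 CPM in stress and 94.3 CPM in control, a log2 ratio of 0.52 (0.45 to 0.59), where 9.04% of genes were as high or higher and 17.8% were at least 1.2-fold higher.

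By class, Cirbp was lower in stress in 22 of 23 classes, with 15 intervals wholly below 0. The classes split the same libraries in which Cirbp was chosen as lower, so these counts are a description. No share of all genes with an interval wholly below or above 0 was computed, for Cirbp or Rbm3. The share of all genes lower in stress by any amount was 44.3% in PVN neuron-like cells, 52.4% in astrocyte-like and 51.7% in oligodendrocyte precursor-like cells. It was 50.6% in oligodendrocyte-like, 51.8% in tanycyte-like, 49.8% in ependymal-like, 54.5% in endothelial-like and 41.6% in microglia-like cells. In the pituitary it was 81.8% in somatotrope-like, 55.1% in lactotrope-like, 53.9% in corticotrope-like, 51.4% in gonadotrope-like, 47.7% in thyrotrope-like, 59.3% in melanotrope-like, 52.8% in stem and folliculostellate-like, 54.7% in pericyte and fibroblast-like, 52.4% in endothelial-like and 54.8% in macrophage-like cells. In the adrenal it was 47.5% in zona glomerulosa-like, 50.2% in zona fasciculata-like, 49.4% in unclear-zone, 51% in endothelial-like and 41.9% in macrophage-like cells. Thus a lower value alone was common, above all in somatotrope-like cells. In the largest pituitary class, the somatotrope-like cells that make growth hormone, Cirbp stood at 86.5 CPM in stress and 132 CPM in control (log2 ratio -0.61, -0.68 to -0.54), where the median gene stood at -0.18. Lactotrope-like cells, which make prolactin, had 136 CPM in stress and 202 CPM in control (-0.57, -0.73 to -0.42), and corticotrope-like cells had a log2 ratio of -0.46 (-0.63 to -0.28). The lowest ratio was in pituitary endothelial-like cells, with 73.6 CPM in stress and 143 CPM in control from 43 and 62 UMIs (-0.95, -1.55 to -0.37). PVN astrocyte-like cells had 145 CPM in stress and 242 CPM in control (-0.74, -1.04 to -0.44). The ratio was near 0 in tanycyte-like cells (-0.08, -0.42 to 0.26) and adrenal macrophage-like cells (-0.06, -0.43 to 0.32), and thyrotrope-like cells had the 1 ratio above 0 (0.094, -0.23 to 0.42), which was -0.031 with doublets kept. In oligodendrocyte-like and gonadotrope-like cells the ratios of -0.19 and -0.28 turned to 0.080 and 0.067 when each cell was thinned to 2000 UMIs.

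The other classes had ratios of Cirbp between these. Among PVN glia, oligodendrocyte precursor-like cells had 179 CPM in stress and 223 CPM in control (-0.32, -0.65 to 0.015), and oligodendrocyte-like cells, which make myelin, had 167 CPM in stress and 191 CPM in control. Ependymal-like cells, which line the ventricle, had 138 CPM in stress and 163 CPM in control (-0.24, -0.50 to 0.018), and tanycyte-like cells had 206 CPM in stress and 218 CPM in control. The intervals of the precursor, ependymal and tanycyte classes include 0. PVN endothelial-like cells had 70.6 CPM in stress and 101 CPM in control (-0.52, -0.94 to -0.11), and microglia-like cells had 64.9 CPM in stress and 90.9 CPM in control (-0.48, -1.04 to 0.049). In the pituitary, stem and folliculostellate-like cells had 186 CPM in stress and 223 CPM in control (-0.27, -0.49 to -0.044). Melanotrope-like cells, which make melanocyte-stimulating hormone, had 140 CPM in stress and 166 CPM in control (-0.25, -0.59 to 0.084), and pericyte and fibroblast-like cells had 166 CPM in stress and 212 CPM in control (-0.36, -0.87 to 0.16). Both of those intervals include 0, whereas that of pituitary macrophage-like cells, at 60.2 CPM in stress and 112 CPM in control, does not (-1.57 to -0.25). In the adrenal, zona fasciculata-like cells had 89.1 CPM in stress and 120 CPM in control (-0.43, -0.58 to -0.28), cortex-like cells of unclear zone had 108 CPM in stress and 131 CPM in control (-0.28, -0.44 to -0.12), and zona glomerulosa-like cells had 104 CPM in stress and 118 CPM in control (-0.18, -0.30 to -0.059). Adrenal endothelial-like cells had 114 CPM in stress and 148 CPM in control (-0.38, -0.74 to -0.0072). All 4 of these adrenal intervals lie below 0.

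**Figure D3:**
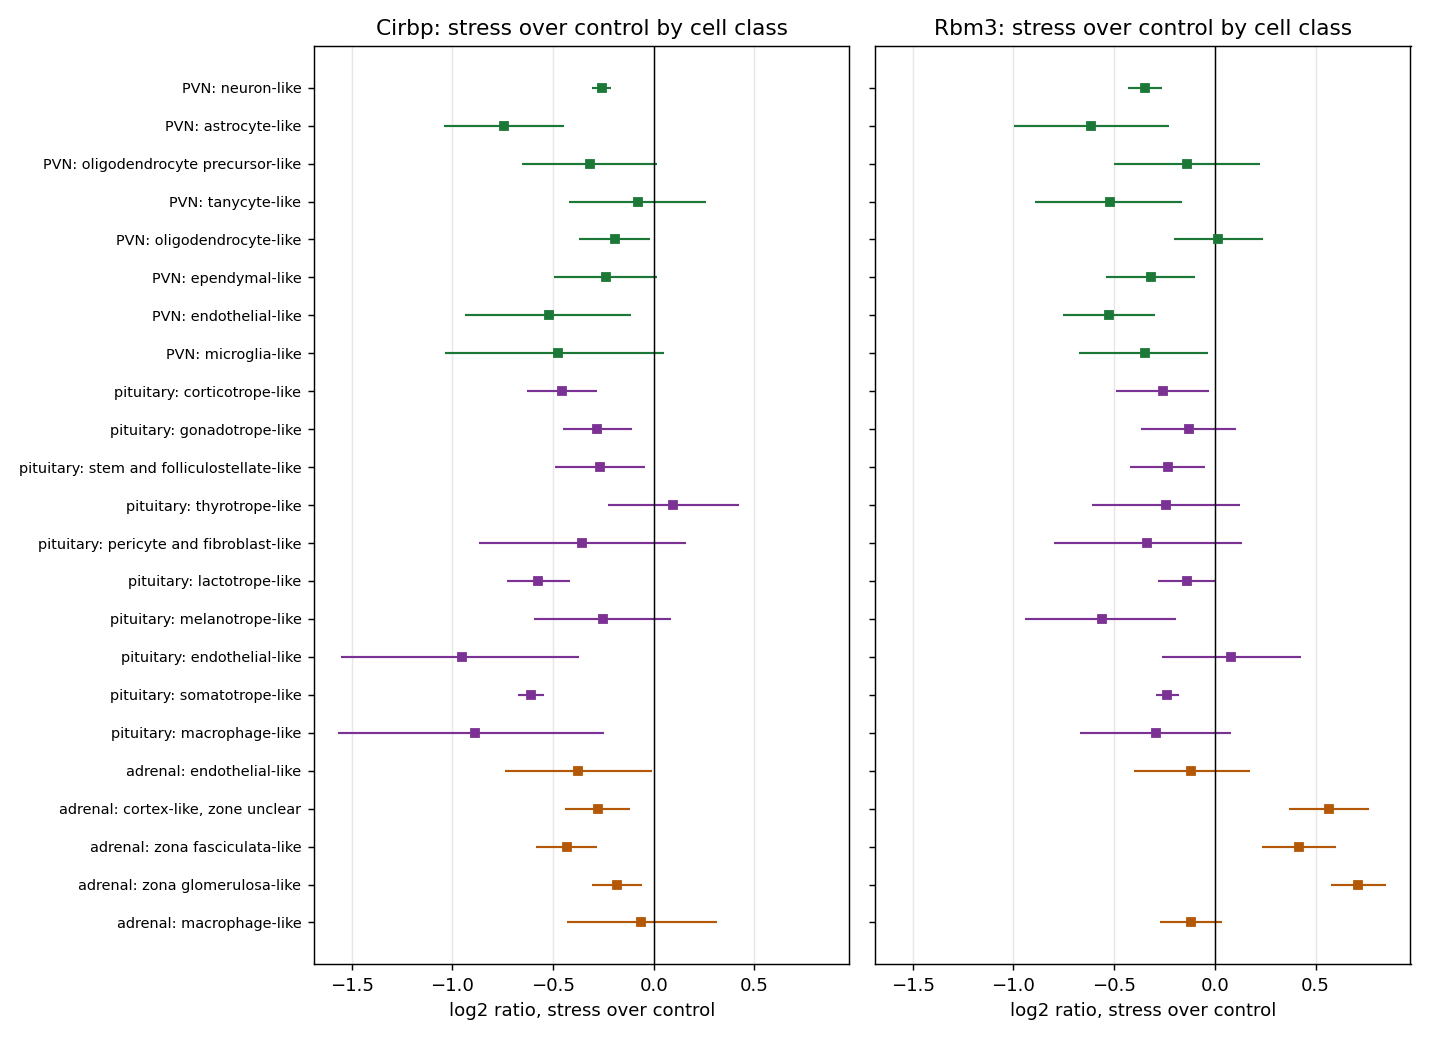
Log2 ratio of stress over control for Cirbp (left) and Rbm3 (right) in 23 classes, with exact 95% counting intervals, coloured by tissue. Cirbp lies left of 0 in 22 of 23 classes, and Rbm3 lies right of 0 in the 3 adrenal cortex classes (0.42 to 0.71).

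Rbm3 was lower in stress in 18 of 23 classes, read against the same shares, and higher in 5. In the PVN the interval lay below 0 in 6 of 8 classes, among them endothelial-like cells (-0.53, -0.75 to -0.30), tanycyte-like cells (-0.52, -0.90 to -0.16) and neuron-like cells (107 CPM in stress and 136 CPM in control; -0.35, -0.43 to -0.26). In the pituitary, melanotrope-like cells had 106 CPM in stress and 157 CPM in control (-0.56, -0.94 to -0.20), and somatotrope-like cells had -0.24 (-0.29 to -0.18), where the median gene stood at -0.18. In the adrenal Rbm3 was higher in all 3 cortex classes, where the share of all genes higher in stress by any amount was 52.5% in zona glomerulosa-like, 49.8% in zona fasciculata-like and 50.6% in unclear-zone cells. All cortex-like cells together had 102 CPM of Rbm3 in stress and 66.4 CPM in control, a log2 ratio of 0.61 (0.52 to 0.71), while their Cirbp stood at 100.5 CPM in stress and 122 CPM in control (-0.27, -0.36 to -0.19). Zona glomerulosa-like cells had the highest Rbm3 ratio of any class (0.71, 0.58 to 0.85), and 1.33% of the genes of that class were as high or higher. Adrenal endothelial-like cells (-0.12, -0.40 to 0.17) and macrophage-like cells (-0.12, -0.27 to 0.04) of the same libraries had ratios below 0 with intervals that include 0. Rbm3 was also higher in stress beyond the 3 named cortex classes. Dividing cells had a ratio of 0.38 (0.041 to 0.74). The cells of the 3 unnamed clusters had 196 CPM in stress and 102 CPM in control (0.93, 0.67 to 1.21). The dividing cluster and unnamed cluster 15 had zona glomerulosa as the class with the second highest marker score (1.09 and 1.05), so they may hold cortex cells. Over all kept adrenal cells 54.1% of genes were higher in stress by any amount. Of 19 adrenal clusters 16 had higher Rbm3 in stress, with 11 intervals above 0, of which 7 were in the named cortex classes. The others were the dividing cells, macrophage-like cluster 3 (1.00, 0.29 to 1.87, from 110 UMIs in stress and 17 in control) and 2 unnamed clusters. Those were cluster 15, led by Esm1 and Cyp26b1 (1.00, 0.56 to 1.46), and cluster 17, led by Plac8 and Cd209a (0.73, 0.36 to 1.13).

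The remaining classes gave smaller or less certain ratios of Rbm3, apart from 3 in the PVN. PVN astrocyte-like cells had 93.2 CPM in stress and 143 CPM in control (a log2 ratio of -0.61, with an interval below 0), the lowest ratio of any class, ependymal-like cells had 181 CPM in stress and 225 CPM in control (-0.32, -0.54 to -0.097), and microglia-like cells had 185 CPM in stress and 236 CPM in control (-0.35, -0.67 to -0.032). Oligodendrocyte precursor-like cells had 162 CPM in stress and 178 CPM in control, and oligodendrocyte-like cells had 114 CPM in stress and 113 CPM in control. The last 2 classes have intervals that include 0. In the pituitary, corticotrope-like cells had 163 CPM in stress and 195 CPM in control (-0.26, -0.49 to -0.028), and stem and folliculostellate-like cells had a ratio of -0.23 (-0.42 to -0.047). Lactotrope-like cells had 184 CPM in stress and 202 CPM in control, gonadotrope-like cells had 131 CPM in stress and 144 CPM in control, and thyrotrope-like cells had 163 CPM in stress and 193 CPM in control. Pericyte and fibroblast-like cells had 202 CPM in stress and 255 CPM in control, and macrophage-like cells had 213 CPM in stress and 261 CPM in control. The intervals of these 5 classes and of pituitary endothelial-like cells include 0, and with cells thinned to 2000 UMIs the endothelial ratio was -0.37, the gonadotrope ratio 0.15 and the pericyte and fibroblast ratio 0.035. That of PVN oligodendrocyte precursor-like cells was 0.055 when thinned.

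Both members were lower in stress in 17 of 23 classes, Cirbp was lower and Rbm3 higher in 5, and Cirbp was higher and Rbm3 lower in 1. Both intervals lay below 0 in 6 classes, and in the 3 adrenal cortex classes the Cirbp interval lay below 0 and the Rbm3 interval above it. How often other pairs of genes share a direction in this way was not computed. The classes of a tissue also share their libraries, so these joint counts are a description. In cells thinned to 2000 UMIs, the share of cells with a Cirbp UMI was lower in stress in 20 of 23 classes and that with an Rbm3 UMI in 18 of 23. The shares of all genes given above are by CPM and without thinning, so they serve these counts only as a rough guide.

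Within classes the clusters mostly followed their class. Of neuron-like clusters with at least 50 UMIs, 9 of 10 had lower Cirbp in stress and 10 of 10 had lower Rbm3. In that class 44.3% of all genes were lower. The cluster led by Oxt, Sst, Avp and Crh holds neurons of neuroendocrine type, 56 in stress and 110 in control, while Trh led a separate cluster. The Oxt-led cluster had 275 CPM of Cirbp in stress and 378 CPM in control (-0.46, -0.67 to -0.25) and an Rbm3 ratio of -0.41 (-0.78 to -0.06). The cluster led by Prok2, Nms, Rgs16 and Vipr2, genes known from the clock neurons of the suprachiasmatic nucleus, had 408 CPM of Cirbp in stress and 571 CPM in control (-0.49, -0.66 to -0.31). A shallow cluster with a median of 4816 UMIs had 264 CPM in stress and 245 CPM in control (0.11, -0.10 to 0.32). All 5 somatotrope-like clusters with that minimum had lower Cirbp, and 3 of 5 had lower Rbm3, in a class where 81.8% of all genes were lower. All 10 adrenal cortex clusters had lower Cirbp and higher Rbm3 in stress, where 47.5 to 50.2% of all genes were lower and 49.8 to 52.5% higher by class. There the Cirbp ratio ran to -1.05 (-1.74 to -0.38) in the zona fasciculata-like cluster led by Abcb1b, and it was -0.07 and -0.03 in zona glomerulosa-like clusters 0 and 10, whose Rbm3 ratios were 0.70 and 0.73. The cluster with the most cells of a class differed between stress and control for neurons (1 and 4), somatotropes (0 and 5), zona glomerulosa (10 and 2) and zona fasciculata (1 and 4).

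**Figure D4:**
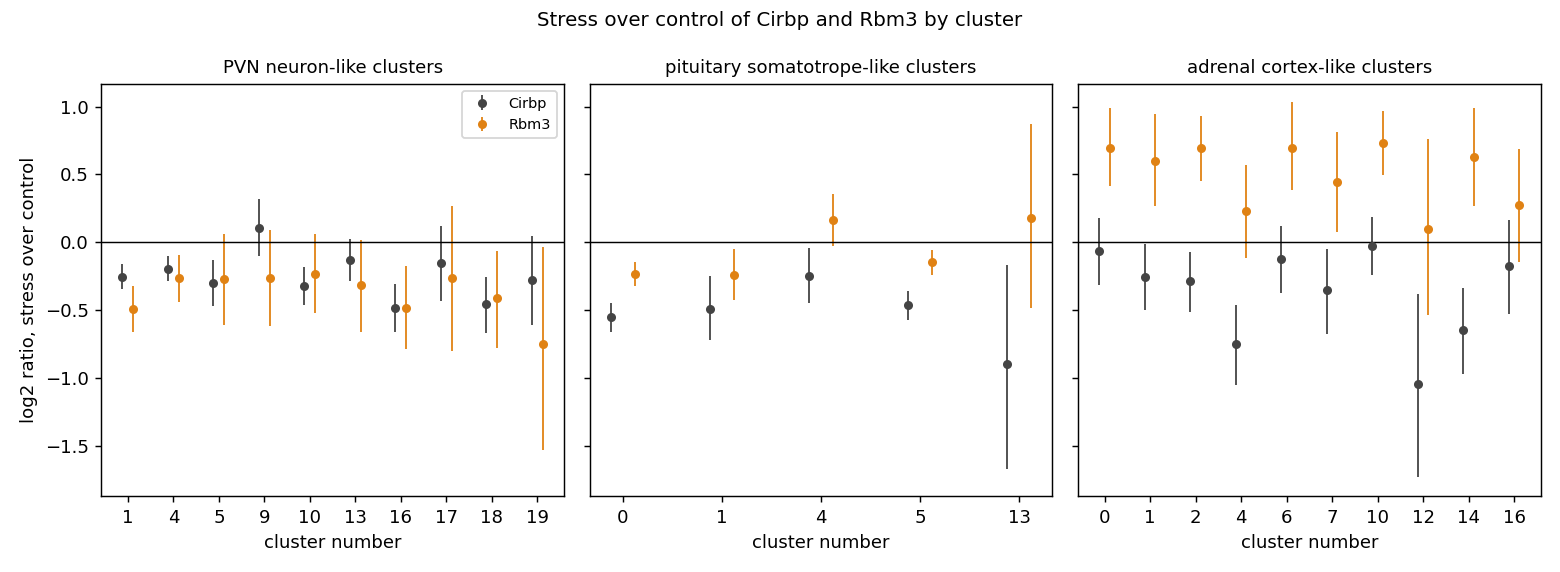
Log2 ratio of stress over control (vertical axis) by cluster number for neuron-like, somatotrope-like and adrenal cortex-like clusters with at least 50 UMIs, with 95% counting intervals. In the adrenal cortex all 10 clusters have Rbm3 (orange) above 0 and Cirbp (grey) below 0.

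The lists of other RNA-binding genes stood near the median of all genes. The 20 listed hnRNP genes, abundant nuclear RNA-binding proteins, had median log2 ratios of 0.00 (PVN), -0.11 (pituitary) and 0.00 (adrenal), and the 31 other RBM genes had 0.01, -0.11 and 0.02. The 19 genes of temperature-dependent splicing had medians of 0.015, -0.13 and -0.0035. At least 1.2-fold lower were 0, 1 and 0 of them, against 8.61%, 21.2% and 10.3% of all genes. Srsf5, a splicing factor, was the lowest of them in the pituitary, with 93.4 CPM in stress and 128 CPM in control (-0.46, -0.51 to -0.40). It was also the lowest in the adrenal, with 250 CPM in stress and 291 CPM in control (-0.22). Srsf4 was the highest in the PVN (0.18) and adrenal (0.15), and Srsf6 in the pituitary (0.074). Hnrnpr, had 71.6 CPM in stress and 93.9 CPM in control in the pituitary (-0.39, -0.45 to -0.33), the lowest of its list there. Rbm38 had the highest RBM ratio in the adrenal (0.34, 0.13 to 0.56), and Rbm24 the lowest in the pituitary, from 21 UMIs in stress and 47 UMIs in control (-1.24, -2.07 to -0.49). Of 15 genes reported as targets or partners of the pair, 14 had the minimum in each tissue, with medians of 0.00, -0.06 and 0.03. The cold-shock domain list, with 6, 5 and 6 of 8 genes at the minimum, had medians of 0.02, 0.04 and 0.08. Glucocorticoid-responsive genes had medians of 0.00 (PVN), 0.03 (pituitary) and -0.06 (adrenal), where Mt2, a metallothionein, was the lowest at 81.8 CPM in stress and 172 CPM in control. Thermosensitive ion channels had the minimum for 6, 5 and 4 of 11 genes, with medians of 0.14 (PVN), 0.00 (pituitary) and 0.68 (adrenal). In the adrenal 4 of 4 were higher in stress, against 54.1% of all genes, and 3 of them at least 1.2-fold, against 17.8%. Those 4 genes had low levels there, from 1.26 to 5.75 CPM. All genes had medians of 0.0054, -0.11 and 0.018 in the same order of tissues.

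The heat-shock list holds chaperones and their partners, which respond to warming and other protein stress, and the transcription factors Hsf1 and Hsf2. Its genes were mostly higher in stress in every tissue. Of the 26 listed, 25 (PVN), 21 (pituitary) and 24 (adrenal) were higher in stress, with median log2 ratios of 0.21, 0.30 and 0.24. Of all genes, 51.7%, 28% and 54.1% were higher in stress by any amount in the same order of tissues. At least 1.2-fold higher were 8, 16 and 10 of the listed genes, against 7.25%, 6.74% and 17.8% of all genes. Hspa1a, an inducible chaperone, had 322 CPM in stress and 51.9 CPM in control in the pituitary, and Hspb1 had 195 CPM in stress and 119 CPM in control in the PVN. Summed over the list, heat-shock UMIs were higher in stress in 23 of 23 classes, for example 11052 CPM in stress and 9722 CPM in control in neuron-like cells and 2550 CPM in stress and 1913 CPM in control in somatotrope-like cells. Immediate-early genes had medians of -0.14 (PVN), 0.81 (pituitary) and -0.23 (adrenal). In the pituitary 19 of 23 were at least 1.2-fold higher in stress, against 6.74% of all genes. In the PVN 2 of 23 were at least 1.2-fold lower, against 8.61% of all genes, and in the adrenal 10 of 21, against 10.3%. Nr4a1, an early-response nuclear receptor, had 191 CPM in stress and 467 CPM in control in the adrenal, and Egr2, a transcription factor, had 28.2 CPM in stress and 45.7 CPM in control in the PVN. Their part in the ratios of Cirbp and Rbm3 was not tested.

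Inside a single library, Cirbp showed no order with heat-shock UMIs that all classes shared. When the cells of each class and library were put in 3 equal groups by heat-shock UMIs, Cirbp was lower in the group highest in them than in the lowest group in 12 of 23 classes in stress and 13 of 23 in control. For Rbm3 it was 9 of 23 classes in stress and 11 of 23 in control. Neuron-like cells had 365 CPM of Cirbp in the highest and 340 CPM in the lowest group in stress, and 439 and 463 CPM in control. Somatotrope-like cells had 102 CPM in the highest and 76.5 CPM in the lowest group in stress, and 149 and 90.7 CPM in control. That rise was not particular to Cirbp. Rbm3 in the same groups stood at 143 and 108 CPM in stress, and 184 and 109 CPM in control. The groups were formed inside each library and are not matched between conditions: the lowest group of corticotrope-like cells averaged 8.86 heat-shock UMIs per cell in stress and 5.39 in control. Some groups were small, such as 23 or 24 PVN tanycyte-like cells with 8 to 11 Cirbp UMIs in stress. All cells of a library were handled together, so the order inside a library does not bear on the ratios between conditions. The part of heat-shock genes in those ratios was not tested.

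**Figure D5:**
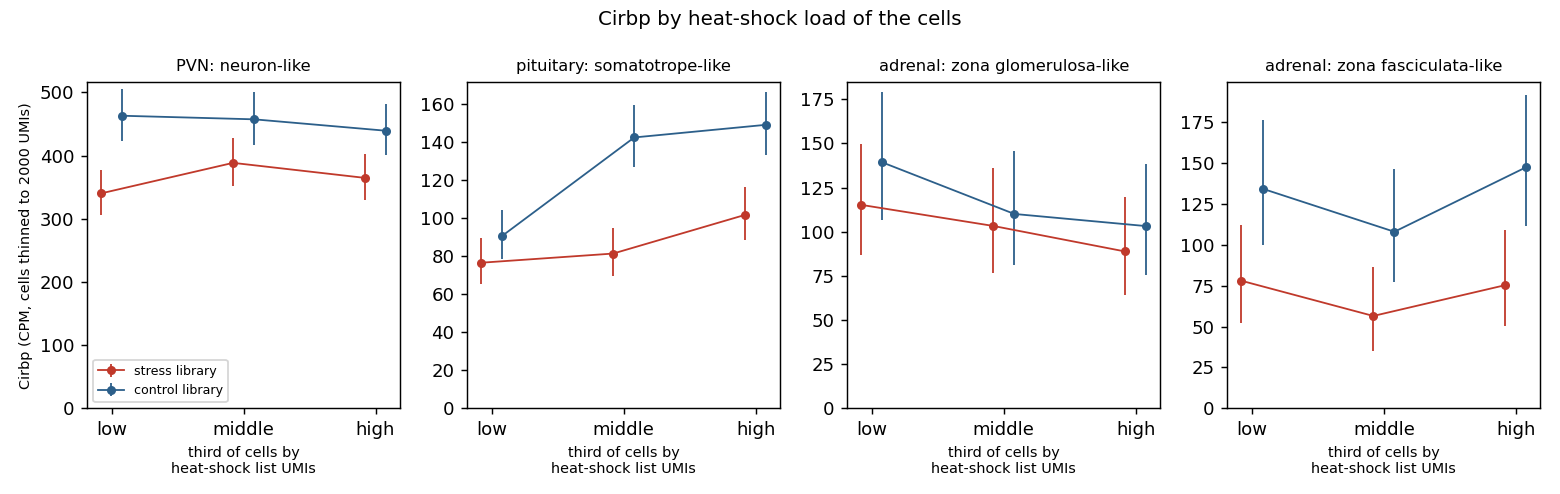
Cirbp in CPM of cells thinned to 2000 UMIs (vertical axes, each from 0) in 3 equal groups of cells by heat-shock UMIs, for 4 classes, with exact 95% counting intervals, stress in red and control in blue. The groups were formed inside each library and are not matched between conditions; along a line, somatotrope-like cells in stress run over 76.5 CPM in the lowest and 102 CPM in the highest group.

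Clock genes lay on both sides of 0 in the adrenal. There 9 of 22 were at least 1.2-fold lower and 8 at least 1.2-fold higher, against 10.3% and 17.8% of all genes. Dbp, a clock output gene, had 189 CPM in stress and 64.4 CPM in control, and Npas2, a partner of the clock activator Arntl, had 1.30 CPM in stress and 5.12 CPM in control (-1.97, -2.52 to -1.46). In the PVN 0 of 23 were at least 1.2-fold lower and 2 higher, against 8.61% and 7.25% of all genes, and in the pituitary 8 of 22 were at least 1.2-fold lower, against 21.2%, with Per3, a period gene, the lowest at 63.3 CPM in stress and 93.1 CPM in control (-0.56, -0.62 to -0.49). Rora, a clock nuclear receptor, was the highest in the PVN at 89.4 CPM in stress and 67.8 CPM in control (0.40, 0.31 to 0.48). The time of day of collection is not given in the sources used here, and the part of the clock genes in the Rbm3 ratio was not tested.

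By level over the 46 pools, the genes most like Cirbp among 11457 were Cisd1 (Pearson r = 0.87), an iron-sulfur protein of the outer mitochondrial membrane, Rab11fip2, Micu3, Slc25a14, Vamp2, a synaptic vesicle protein (0.85), Pja2, Ankra2, Flywch2, 1500011B03Rik and Cntnap2. Those most like Rbm3 were Crip1 (0.83), Gcnt2 (0.77), Apobec3, Herpud1, Samhd1, Klf10, Zfp472, St3gal6, Il13ra1 and Arhgef2. By the ratio of stress over control over the 23 classes, the genes closest to Cirbp among 1379 were Tsc22d3, a glucocorticoid-induced gene (mean absolute difference 0.23), Rps29, Eif4b, Gm10076, mt-Co1, Srsf5, Hnrnpr, Rpl37, Rpl35 and Echs1. Tsc22d3 was lower in stress in 18 of the 23 classes and Srsf5 in 20. Those closest to Rbm3 were Rpl15, Rpl35a, Kcnq1ot1, Fubp1, mt-Nd1, Rpl35, Ubap2l, Dnaja2, Stk11 and Rps15a, each at 0.23 to 0.24. The likeness was loose for both members. For Cirbp the mean absolute differences reached 0.27. Its median ratio over the classes was -0.32, and its 10 genes ran from -0.46 (Gm10076) to -0.12 (Eif4b). For Rbm3 the median ratio was -0.24, and its 10 genes ran from -0.14 (Rpl35) to -0.0091 (Dnaja2).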

How the data were processed

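The deposited matrices hold UMI counts per gene and barcode, made by the authors with Cell Ranger 2.1.1 on mm10 per the submitters' processing notes, which also name Scanpy. The annotation and strand setting are not given in the sources used here. Barcodes were dropped below 200 genes or above 25% mitochondrial UMIs, and the highest doublet scores (0.8% per 1000 cells, from 2 simulated doublets per cell) were left out. Cells of each tissue were clustered with Scanpy 1.11.5 (2000 variable genes, 30 components, 15 neighbours, Leiden resolution 1), without the members, listed, mitochondrial, ribosomal and sex-linked genes. Clusters were named from at least 3 markers found in 10% of cells at 2-fold or more, by rules set after the clusters had been seen, and class names are rebuilt ones. In the adrenal 3 clusters and in the PVN 4 stayed unnamed. Sums of UMIs were scaled to the class total, with exact Poisson intervals, and log2 ratios (0.5 UMI added) with exact conditional binomial intervals. Ratios were checked on simulated counts. No test was made, since each group has 1 library. The genes named were the members, genes drawn from the highest and lowest of each list in each tissue, and the 10 most alike. Members and lists were chosen with earlier results of these data known. No cell type is known to lack either gene, so background from free RNA could not be set from such cells.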

Additional observations from a re-analysis of the deposited data

Results flagged for a closer look

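The ratio of Rbm3 in stress over control pointed in opposite ways between tissues. Its log2 ratio over all kept cells was 0.52 in the adrenal, against -0.33 in the PVN and -0.20 in the pituitary. Each tissue has 1 library per condition, so the difference between tissues was not tested. The adrenal pools were dissociated with collagenase for 55 min and the others with papain, for 35 and 15 min, so tissue and preparation cannot be told apart.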

How the results depend on the processing

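No tissue-level ratio changed direction under the 8 alternatives. Those that moved beyond their counting interval were, for Cirbp in the PVN, -0.33 as a mean over cells and -0.32 as a mean over classes; in the pituitary, -0.43 by median-of-ratios scaling, -0.48 without mitochondrial and top 10 genes in the total and -0.45 with cells thinned to 2000 UMIs; and in the adrenal, -0.47 thinned. For Rbm3 they were -0.24 thinned in the PVN; -0.092 by median-of-ratios scaling and -0.14 without the top genes in the pituitary; and 0.31 thinned, 0.34 as a mean over cells and 0.39 as a mean over classes in the adrenal. Among 161 class values of Cirbp under alternatives, 153 stayed within the counting interval, 6 moved and 2 reversed, both thinned: 0.080 in PVN oligodendrocyte-like and 0.067 in pituitary gonadotrope-like cells. Of 161 for Rbm3, 9 moved. Signs also turned in classes whose interval includes 0: Cirbp in thyrotrope-like cells with doublets kept (-0.031), and Rbm3 thinned in pituitary endothelial-like (-0.37), gonadotrope-like (0.15), pericyte and fibroblast-like (0.035) and PVN oligodendrocyte precursor-like cells (0.055), with -0.16 in pituitary endothelial-like cells as a mean over cells. The cause was not tested.

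Genes at least 1.2-fold lower in stress numbered 1281 (PVN), 2995 (pituitary) and 1319 (adrenal). At 1.5-fold they were 264, 501 and 293, with a minimum of 1 UMI 3765, 5555 and 3196, and with 200 UMIs 725 in the PVN and 856 in the adrenal. Genes higher numbered 1079, 954 and 2284; at 1.5-fold 187, 261 and 965, with 1 UMI 3190, 2884 and 4972, and with 200 UMIs 617, 476 and 1468. No paired analysis was possible because each group has 1 library, and for the same reason no replicate could be left out. Depth limits the small classes, where intervals of the log2 ratio span over 1 unit.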

Other observations

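Rbm3 stood high in dividing cells, which had too few cells for the comparisons of classes. Pituitary dividing cells had 357 CPM in stress (36 cells) and 568 CPM in control (11 cells), and adrenal dividing cells had 206 CPM in stress (55 cells) and 158 CPM in control (37 cells). Adrenal lymphocyte-like cells had 311 CPM of Rbm3 in stress (39 UMIs in 19 cells) and 757 CPM in control (98 UMIs in 20 cells), the reverse of the cortex cells in the same libraries. PVN pericyte and smooth muscle-like cells had 160 CPM of Cirbp in stress (56 cells) and 394 CPM in control (38 cells), and their Rbm3 stood at 231 and 223 CPM. Adrenal chromaffin-like cells, which make adrenaline, had 159 CPM of Cirbp in stress (41 cells) and 114 CPM in control (28 cells). Barcodes left out of the adrenal libraries for their mitochondrial share had 29.9 CPM of Cirbp in stress and 58.8 CPM in control, against 48.9 CPM in stress in the lowest of the 23 classes compared, and their Rbm3 intervals ran over 40.8 to 60.7 CPM in stress and 34.8 to 71.8 CPM in control. Among the 2 adrenal macrophage-like clusters, the one led by Lyz2, Fcgr3 and Trem2 had an Rbm3 ratio of 1.00 (110 and 17 UMIs in stress and control) and the one led by Cxcl2, Il1b and Ccl3 had -0.14.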
